A study of Mus musculus with 10 samples.

Results

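The genes described here encode the opioid and tachykinin peptide precursors and their receptors, read in the cortex of Crtc1-/- mice and of their WT littermates. They are 10 genes, of which Pdyn, Penk, Pnoc, Tac1 and Tac2 make peptides and Oprk1, Oprm1, Oprd1, Oprl1 and Tacr1 make receptors. Their probe sets were taken by annotation alone, as all those that name a single one of these genes, which gave 17 probe sets of the 45037 tested and 10 genes of the 18193 that had a probe set of their own. Cortical RNA came from 5 Crtc1-/- females, which lack the CREB coactivator Crtc1, and from 5 WT females, all untreated C57BL/6N adults aged 2 months. Each mouse had 1 GeneChip array (Affymetrix, Mouse Genome) made from 300 ng of total RNA, and the deposited values are log2 array values. The comparison asks which transcripts differ in cortex when Crtc1 is missing. By the study's methods the mice of both genotypes had been kept singly for some weeks before sampling. The tissue is given as cortex, with many cell types in it, so fewer cells of a type and less RNA per cell cannot be told apart in any value given here.

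Opioid and tachykinin peptides are cut from larger precursor proteins, stored in dense-core vesicles and released to act on G protein-coupled receptors. Dynorphins from Pdyn act mainly at the kappa receptor Oprk1, enkephalins from Penk at the delta and mu receptors Oprd1 and Oprm1, and nociceptin from Pnoc at Oprl1. These receptors couple to inhibitory G proteins. Substance P from Tac1 acts mainly at the NK1 receptor Tacr1 and neurokinin B from Tac2 at the NK3 receptor Tacr3, both of which couple to phospholipase C. In mouse cortex Tac2 and Pnoc are transcribed mostly in interneurons, whereas Penk and Tac1 are also among the most abundant peptide transcripts of the neighbouring striatum. Pdyn and Penk are textbook targets of CREB, the factor that Crtc1 assists.

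Crtc1 itself was low in every Crtc1-/- mouse, at 5.96 to 6.60 for probe set 1434476_at, against 9.51 to 9.86 in WT mice (log2 fold change −3.32, adjusted p = 2.13e-07, limma). Probe set 1458443_at of Crtc1 was lower too, at −1.78 (adjusted p = 1.36e-05). The dimmest Crtc1 probe set, 1446533_at, did not differ, at −0.03 (adjusted p = 0.963). The 10 arrays were close to one another, with medians of 5.29 to 5.32 and correlations of 0.994 to 0.998 over probe sets. Markers of excitatory cortical neurons averaged 9.22 ± 0.02 in Crtc1-/- mice and 9.20 ± 0.09 in WT mice (n = 5 each, SD, 11 genes), a near balance of members that went both ways. Of the 11, 4 were lower at an unadjusted p under 0.05, Slc17a7, Tbr1, Neurod6 and Bcl11b, with log2 fold changes of −0.13 to −0.19, and Slc17a6 was higher, at 0.59 (adjusted p = 0.104, limma). Over all probe sets 7.19% reached that unadjusted p in either direction. Marker means that differed most were those of oligodendrocytes, at 10.24 ± 0.11 in Crtc1-/- mice and 10.03 ± 0.15 in WT mice, and of thalamus and habenula, at 6.35 ± 0.05 in Crtc1-/- mice and 6.26 ± 0.04 in WT mice. Two-sided exact permutation tests gave p = 0.0317 for oligodendrocytes and p = 0.0238 for thalamus and habenula, and both were 0.175 after correction over 11 marker lists. Of single markers, 0 of 12 and 0 of 8 passed in limma. Yet all 12 oligodendrocyte genes leaned the same way, higher in Crtc1-/- mice, by 0.04 to 0.44 on the log2 scale. For 5 of these 12 the unadjusted p was under 0.05, beside 7.19% of all probe sets in either direction. Slc17a6, which the thalamic list shares with the excitatory one, carried most of the thalamic difference, and the other 7 thalamic and habenular markers ran between −0.11 for Gpr151 and 0.07 for Prkcd. For microglia, astrocytes, endothelium, choroid plexus and meninges the exact permutation p lay between 0.167 and 0.976. The part of these cell types in the results was not tested.

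Crtc1 acts through CREB, which binds the cAMP response element, so the promoters of the 10 genes were searched for the full element TGACGTCA and for its half-site TGACG, on both strands. Every full element also holds the half-site on each strand. RefSeq promoter windows of 300 bases, 250 before and 50 after each transcription start in GRCm38.p6, were given for 7 of the 10 genes in 12 windows; Penk, Pnoc and Oprk1 were not among them. The full element was in 0 of the 12 windows, against 1.79% of 32851 promoters, and the half-site was in 2 of the 12, against 20.8% of promoters. Some windows of 1 gene overlap. Counted by gene, the half-site was in 2 of the 7, against 23.0% of genes, too few to set the group apart either way. The windows of Tac2, whose values differed most between the genotypes, and of Tac1 and Tacr1, which hold half-sites, are shown 5′ to 3′ with the half-site in capitals where there is one. They lie at chr10:127724228-127724527 for Tac2, chr6:7554811-7555110 for Tac1 and chr6:82402225-82402524 for Tacr1, all on the plus strand.
Tac2: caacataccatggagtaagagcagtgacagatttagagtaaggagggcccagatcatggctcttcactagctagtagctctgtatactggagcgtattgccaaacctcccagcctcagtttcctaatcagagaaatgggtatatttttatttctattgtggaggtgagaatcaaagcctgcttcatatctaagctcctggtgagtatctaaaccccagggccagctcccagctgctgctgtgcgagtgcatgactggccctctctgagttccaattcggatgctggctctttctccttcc
Tac1: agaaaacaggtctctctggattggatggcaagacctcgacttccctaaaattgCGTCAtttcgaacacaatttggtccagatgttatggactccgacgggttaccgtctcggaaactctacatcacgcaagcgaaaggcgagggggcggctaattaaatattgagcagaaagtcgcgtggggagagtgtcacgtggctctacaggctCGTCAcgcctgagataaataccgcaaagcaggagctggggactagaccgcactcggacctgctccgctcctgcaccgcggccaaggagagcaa
Tacr1: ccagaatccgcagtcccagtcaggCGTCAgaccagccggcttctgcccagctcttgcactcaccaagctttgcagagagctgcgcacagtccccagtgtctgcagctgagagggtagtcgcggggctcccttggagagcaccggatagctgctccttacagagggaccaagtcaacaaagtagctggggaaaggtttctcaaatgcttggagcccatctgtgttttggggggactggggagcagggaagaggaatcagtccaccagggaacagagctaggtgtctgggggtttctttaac
The Tac1 window holds the half-site starting 197 and 43 bases before the transcription start, both times as CGTCA, and the Tacr1 window holds it 226 bases before. The Tacr1 window lies inside the annotated gene, which begins at chr6:82402003, so the start it is measured from is an internal one. In the Tac2 window these letters were not found, which says nothing about whether CREB binds the gene.

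None of the 10 genes passed the test over all probe sets. The lowest adjusted p, 0.158 in limma with Benjamini-Hochberg correction, belonged to Tac2, and each of the other 16 probe sets had an adjusted p of 0.562 or more. Among all 45037 probe sets, 84 (0.187%) passed as lower and 52 (0.115%) as higher in Crtc1-/- mice, so a count of 0 among 17 probe sets is near the background. At an unadjusted p under 0.05, 2 of the 17 probe sets (11.8%) were those of Tac2 and Pnoc, beside 7.19% of all probe sets, which is too few to read as a result about the group. The genotypes overlapped in all 17, where 2.08% of all probe sets had groups that did not overlap. The log2 fold changes of the brightest probe set of each gene were below 0 in 8 genes and above 0 in 2, of which Oprm1, at 0.0040, was below 0 after quantile normalization or median centring. Their median was −0.07, and the median over all probe sets was −0.00021.

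**Figure D1:**
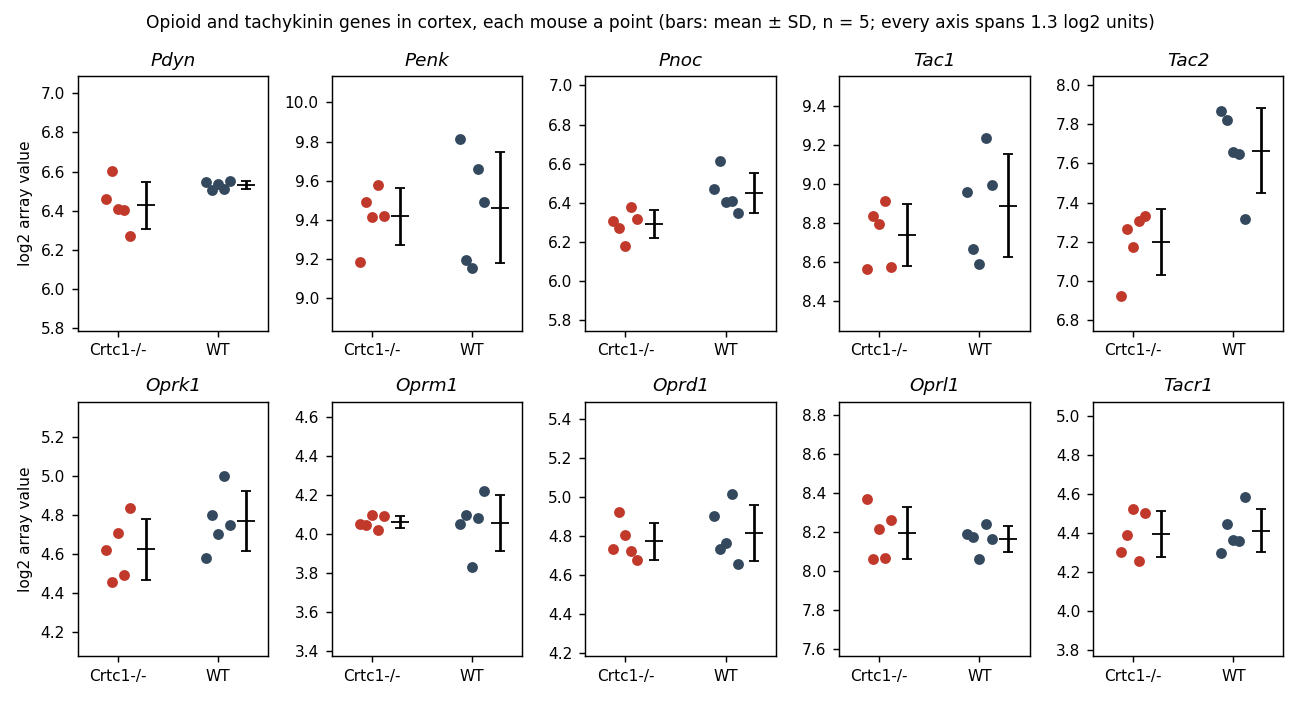
Log2 array values of the brightest probe set of each gene (vertical axes, all spanning the same log2 range) in Crtc1-/- mice and in WT mice; each point is a mouse, and the bars show the mean ± SD (n = 5). In Tac2, Pnoc and Pdyn 4 of 5 Crtc1-/- mice lie below every WT mouse, in Pdyn with the other mouse above every WT mouse, while the groups of the receptor genes lie over each other.

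Tac2, the neurokinin B precursor, had the most negative log2 fold change of the 10 genes. Its only probe set, 1419411_at, read 6.92, 7.26, 7.17, 7.31 and 7.33 in Crtc1-/- mice 1 to 5, against 7.87, 7.82, 7.66, 7.65 and 7.32 in WT mice 1 to 5. All but one of the Crtc1-/- mice lay below the lowest WT mouse, and the overlap came from WT mouse 5, which sat level with the upper Crtc1-/- mice. Crtc1-/- mice averaged 7.20 ± 0.17 and WT mice 7.66 ± 0.22 (n = 5 each, SD), a log2 fold change of −0.47 (standard error 0.11, 95% confidence interval −0.70 to −0.23). On the linear scale the ratio of Crtc1-/- to WT was 0.724, with an interval of 0.615 to 0.852. The unadjusted p was 0.00105 in limma, and the two-sided exact permutation p of this single probe set was 0.0159, where 5 against 5 mice can reach 0.00794. After correction over all probe sets the difference did not pass (adjusted p = 0.158).

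That call moved with the arrays and the settings used. WT mouse 5 had the lowest WT value, so leaving it out had to widen the difference. Without it the log2 fold change of Tac2 was −0.55 and the adjusted p was 0.0420 in limma, the single alternative of 22 in which a gene of the group passed. Leaving out any other array gave an adjusted p of 0.219 to 0.366. A trended and robust variance prior gave 0.0763, and no moderation gave 0.325. Across those 22 alternatives the log2 fold change of Tac2 stayed between −0.55 and −0.31. The adjusted p ran between 0.0420 and 0.952.

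**Figure D2:**
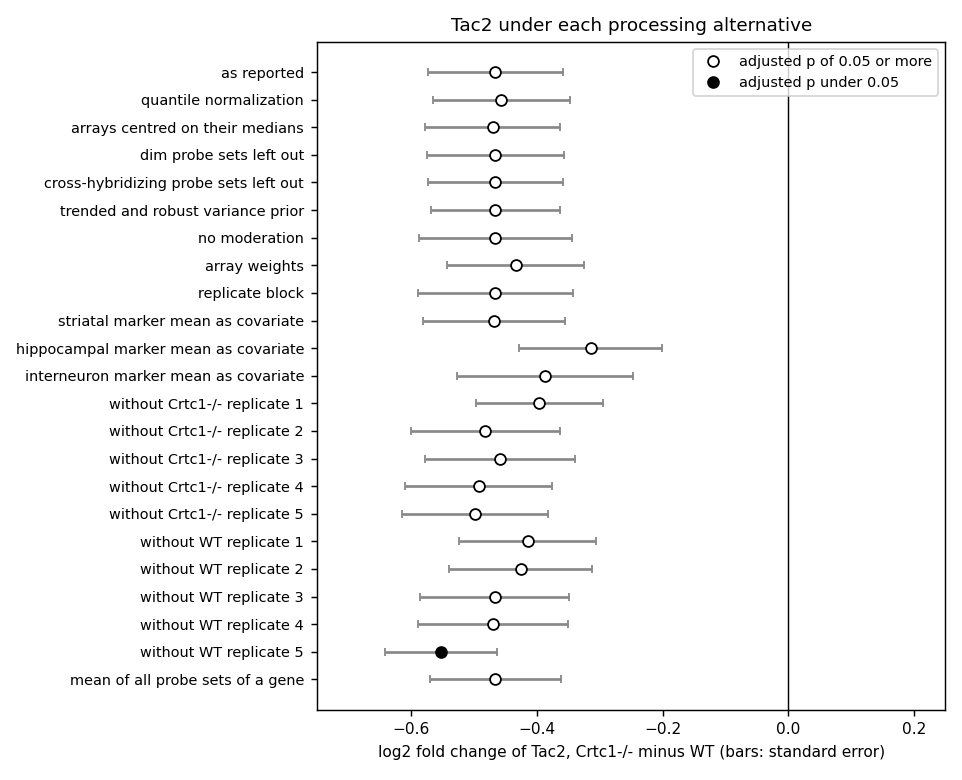
Log2 fold change of Tac2, Crtc1-/- minus WT (horizontal axis), as reported and under each of 22 alternatives (rows); points are estimates, bars are standard errors, and a filled point marks an adjusted p under 0.05. All estimates lie below 0, between −0.55 and −0.31, and 1 point, without WT replicate 5, is filled.

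Markers of hippocampus, which borders the cortex, and of interneurons had lower means in Crtc1-/- mice, and neither mean passed after correction. The hippocampal marker mean (13 genes) ran between 6.34 and 6.51 in Crtc1-/- mice, against 6.45 and 6.60 in WT mice, with 2 of 13 markers, Fibcd1 and Fam163b, lower by the adjusted p beside 0.187% of all probe sets (exact permutation p = 0.0714 for the mean, and 0.196 after correction over 11 lists). The hippocampal markers did not move as one: 8 had a log2 fold change below 0 and 5 above. At an unadjusted p under 0.05 there were 7 lower and 2 higher, beside 7.19% of all probe sets in either direction. The 2 higher ones were Grp at 0.45 with no overlap and Calb1 at 0.15. The interneuron marker mean (21 genes) ran between 8.30 and 8.43 in Crtc1-/- mice, against 8.40 and 8.51 in WT mice (exact permutation p = 0.0476, and 0.175 after correction over 11 lists). By the adjusted p 1 marker, Sst, was lower and 1, Lamp5, was higher, beside 0.187% lower and 0.115% higher of all probe sets. Most of the difference in the mean came from 3 peptide-system genes, Sst at −0.54, Npy at −0.37 and Crhbp at −0.35. The general markers Gad1, Slc32a1, Lhx6 and Dlx1 lay between −0.03 and −0.01, and Lamp5 was at 0.25. Gad2, also a general marker, was at −0.07, with 4 of 5 Crtc1-/- mice below every WT mouse (exact permutation p = 0.0317, and adjusted p = 0.822 in limma). Its dimmer probe set, 1421978_at, was at 0.09. The ranges of both marker means overlapped between the genotypes. With the hippocampal mean as a covariate the log2 fold change of Tac2 was −0.31 (adjusted p = 0.734, limma), and with the interneuron mean it was −0.39 (adjusted p = 0.952). Both means hold genes that passed by genotype, so these fits cannot separate genotype from the marker lists. With them the calls over all probe sets fell from 136 to 34 and 33. The part of tissue or cells in the Tac2 difference was not tested.

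The 3 genes whose profile over the 10 arrays lay closest to that of Tac2 were Fibcd1, Rin1 and Npy, with root mean square differences of 0.109, 0.117 and 0.123 on the log2 scale. Fibcd1 is one of the hippocampal markers counted above, and Npy, the precursor of neuropeptide Y, is one of the interneuron markers. Their log2 fold changes were −0.41, −0.39 and −0.37 in that order, so genotype is part of the likeness.

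Tacr3, the NK3 receptor through which neurokinin B acts, had its higher values in Crtc1-/- mice, the opposite side from Tac2. It was measured from the list of related receptors and peptides, and its brightest probe set, 1440803_x_at, read 5.20, 4.84, 4.89, 5.11 and 5.30 in Crtc1-/- mice 1 to 5, against 4.61, 4.54, 4.31, 4.74 and 4.52 in WT mice 1 to 5. Every Crtc1-/- mouse lay above every WT mouse. The means were 5.07 ± 0.20 in Crtc1-/- mice and 4.55 ± 0.16 in WT mice (n = 5 each, SD), a log2 fold change of 0.52 (standard error 0.10) that did not pass over all probe sets (adjusted p = 0.0645, limma). The suffix of this probe set marks probes that may bind other transcripts. The other probe sets of Tacr3 overlapped between the genotypes, with log2 fold changes of 0.44 for 1437029_at (adjusted p = 0.534) and 0.11 for 1450278_at (adjusted p = 0.893).

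Pnoc, the nociceptin precursor, was the other gene with an unadjusted p under 0.05. Its probe set 1425892_a_at read 6.31, 6.27, 6.18, 6.38 and 6.31 in Crtc1-/- mice 1 to 5, against 6.47, 6.61, 6.40, 6.41 and 6.35 in WT mice 1 to 5. Only Crtc1-/- mouse 4 reached into the WT range, above WT mouse 5. The means were 6.29 ± 0.07 in Crtc1-/- mice and 6.45 ± 0.10 in WT mice (n = 5 each, SD), a log2 fold change of −0.16 (95% confidence interval −0.29 to −0.03, unadjusted p = 0.0208 and adjusted p = 0.562, limma). With the interneuron marker mean, led by Sst, Npy and Crhbp, as a covariate the log2 fold change was −0.06, and with the hippocampal mean −0.08. Both of these means hold genes that passed by genotype, and the part of those cells and tissue in the difference was not tested.

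Pdyn, the dynorphin precursor, was tightly grouped in WT mice and spread in Crtc1-/- mice. Probe set 1416266_at read 6.46, 6.60, 6.41, 6.40 and 6.27 in Crtc1-/- mice 1 to 5, against 6.55, 6.51, 6.53, 6.51 and 6.55 in WT mice 1 to 5. The Crtc1-/- mice lay on both sides of the WT mice, 4 below all of them and mouse 2 above all of them. The means of 6.43 ± 0.12 in Crtc1-/- mice and 6.53 ± 0.02 in WT mice (n = 5 each, SD) gave a log2 fold change of −0.10 (95% confidence interval −0.23 to 0.02, adjusted p = 0.797, limma). The difference in spread was not tested.

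Penk, the enkephalin precursor, varied more between mice of 1 genotype than between the genotypes. Probe set 1427038_at read 9.18, 9.49, 9.41, 9.58 and 9.42 in Crtc1-/- mice 1 to 5, against 9.81, 9.20, 9.16, 9.66 and 9.49 in WT mice 1 to 5. The WT mice held both the highest and the lowest value, with mice 2 and 3 low and mice 1 and 4 high. The log2 fold change was −0.05 (95% confidence interval −0.32 to 0.23, adjusted p = 0.973, limma), which in linear terms leaves ratios of Crtc1-/- to WT between 0.802 and 1.17.

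Tac1, the precursor of substance P and neurokinin A, ranked the WT mice in a similar way. Its brighter probe set, 1416783_at, read 8.56, 8.84, 8.80, 8.91 and 8.58 in Crtc1-/- mice 1 to 5, against 8.96, 8.67, 8.59, 9.24 and 9.00 in WT mice 1 to 5. WT mice 2 and 3 were again low and WT mouse 4 high, and Crtc1-/- mice 1 and 5 lay just below the lowest WT mouse. The log2 fold change was −0.15 (95% confidence interval −0.41 to 0.11, adjusted p = 0.878, limma). The second Tac1 probe set, 1431883_at, was dim, and its log2 fold change was 0.07 (adjusted p = 0.923). Averaged over both, the log2 fold change of Tac1 was −0.04.

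Penk and Tac1 moved with the striatal markers across the 10 arrays. The mean of 13 striatal markers was 7.58, 7.59, 7.76, 7.74 and 7.70 in Crtc1-/- mice 1 to 5, against 7.80, 7.49, 7.54, 7.91 and 7.77 in WT mice 1 to 5, so that WT mice 2 and 3 had the least and WT mouse 4 the most. The genotypes differed little in it, at 7.67 ± 0.09 in Crtc1-/- mice and 7.70 ± 0.18 in WT mice (n = 5 each, SD, exact permutation p = 0.754), and 0 of the 13 markers passed the test. The mean balanced members that went both ways. Scn4b was higher, at 0.48 with no overlap (adjusted p = 0.0596, limma). Pde10a was at −0.44 and Rasd2 at −0.41 (adjusted p = 0.266 and 0.463, limma). At an unadjusted p under 0.05 there were 2 lower and 1 higher, beside 7.19% of all probe sets. Drd2, a dopamine receptor that marks the enkephalin neurons of striatum, read 5.02 to 5.90 in Crtc1-/- mice and 4.69 to 5.95 in WT mice.

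Penk correlated with that mean at r = 0.824 (permutation p = 0.00402, Benjamini-Hochberg p = 0.0203 over the 10 genes) and rho = 0.794 (permutation p = 0.00872, adjusted 0.0436). For Tac1 the values were r = 0.810 (permutation p = 0.00406, adjusted 0.0203) and rho = 0.794 (permutation p = 0.00856, adjusted 0.0436). Leaving out WT mice 2 and 4, the farthest from the median of the striatal mean, r was 0.776 for Penk and 0.706 for Tac1, and after subtracting each genotype's mean it was 0.821 for Penk and 0.832 for Tac1. The other 8 genes had adjusted p of 0.615 or more for r. Among them were the peptide genes Tac2 at 0.06, Pdyn at −0.13 and Pnoc at −0.22, so the peptide genes did not share the relation as a group. Both quantities come from the same 10 arrays, and the relation was chosen after earlier results of these data were known. With the striatal mean as a covariate the log2 fold change was −0.01 (standard error 0.08) for Penk and −0.12 (standard error 0.08) for Tac1.

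**Figure D3:**
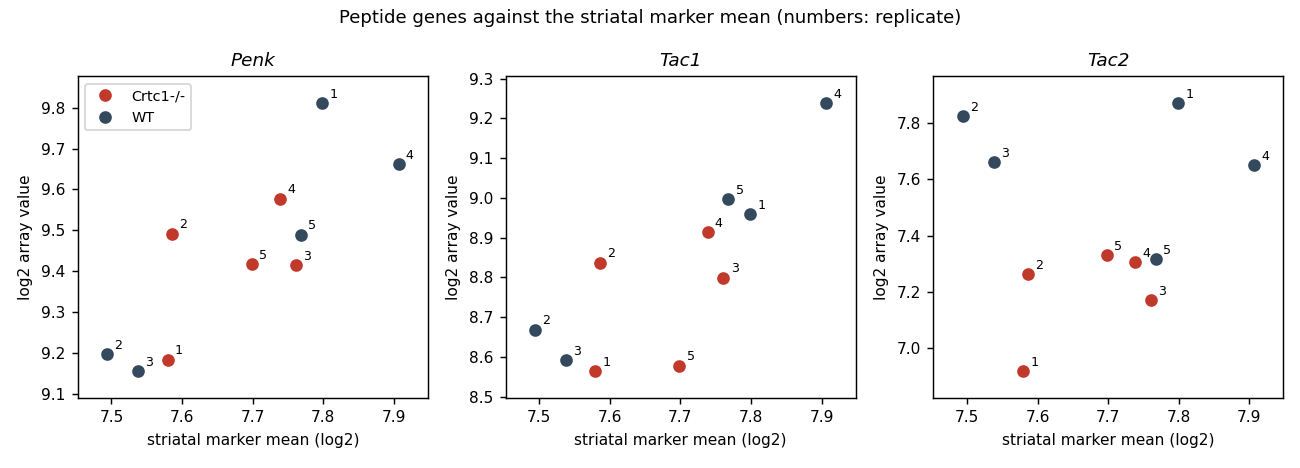
Log2 array values of Penk, Tac1 and Tac2 (vertical axes) against the mean of 13 striatal markers (horizontal axes, log2); each point is a mouse with its replicate number, coloured by genotype. Penk (r = 0.824) and Tac1 (r = 0.810) run upward from WT mice 2 and 3 to WT mice 1 and 4, and Tac2 has r = 0.06. The striatal means of the 5 Crtc1-/- mice lie between those of WT mice 3 and 5, with no WT mouse among them.

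The likest profiles to Penk were those of Cep55, Slc35d3 and Thg1l, with root mean square differences of 0.0837, 0.0959 and 0.0961 on the log2 scale over the 10 arrays. For Tac1 they were Adam26a, Has2 and Dbpht2, with differences of 0.0992, 0.113 and 0.118. Such a search, here and for Tac2, always returns the 3 nearest of the 18193 genes with a probe set of their own. A place among them is thus no sign of shared regulation, which was not tested. The remaining 7 genes varied too little over the arrays for such a search.

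The 5 receptor genes were read by 11 probe sets, whose log2 fold changes lay between −0.14 and 0.15. Oprk1, the kappa receptor, had the lowest of them: probe set 1451813_at read 4.62, 4.46, 4.71, 4.49 and 4.84 in Crtc1-/- mice 1 to 5, against 4.58, 4.80, 4.70, 5.00 and 4.75 in WT mice 1 to 5. Crtc1-/- mice 2 and 4 lay below the WT mice and WT mouse 4 above all others, with the rest mixed. The log2 fold change was −0.14 (95% confidence interval −0.34 to 0.05, adjusted p = 0.822, limma). Its second probe set, 1446394_at, had a log2 fold change of −0.09 at an adjusted p of 0.955 and a low value of 3.06 in Crtc1-/- mouse 2.

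Oprl1, the nociceptin receptor, showed no difference past the spread between mice, and its 3 probe sets had log2 fold changes of 0.03, 0.05 and 0.05. Probe set 1426204_a_at read 8.37, 8.06, 8.21, 8.07 and 8.26 in Crtc1-/- mice 1 to 5, against 8.19, 8.17, 8.06, 8.24 and 8.16 in WT mice 1 to 5. The WT values lay almost wholly within the Crtc1-/- range. The interval of the ratio of Crtc1-/- to WT was 0.924 to 1.13 (adjusted p = 0.968, limma).

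Oprm1, Oprd1 and Tacr1 gave intervals of similar width around no difference. The mu receptor Oprm1 read 4.02 to 4.10 in Crtc1-/- mice and 3.83 to 4.22 in WT mice at 1459402_at, with a ratio between 0.909 and 1.11 (adjusted p = 0.995, limma). Its other 3 probe sets had log2 fold changes of 0.15 (1425432_at, adjusted p = 0.751), −0.08 (1451709_at, adjusted p = 0.903) and 0.03 (1451705_a_at, adjusted p = 0.954), so they did not share a direction. The delta receptor Oprd1 read 4.68 to 4.92 in Crtc1-/- mice and 4.66 to 5.02 in WT mice at 1422121_at, with a ratio between 0.870 and 1.09 (adjusted p = 0.958). For the NK1 receptor Tacr1, probe set 1422282_at read 4.26 to 4.52 in Crtc1-/- mice and 4.30 to 4.59 in WT mice, with a ratio between 0.889 and 1.10 (adjusted p = 0.984). Brightness is not abundance, but 7 of the 17 probe sets, all 4 of Oprm1 and that of Tacr1 among them, lay in the dimmest 40% of probe sets, where an array follows a change in RNA least well.

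**Figure D4:**
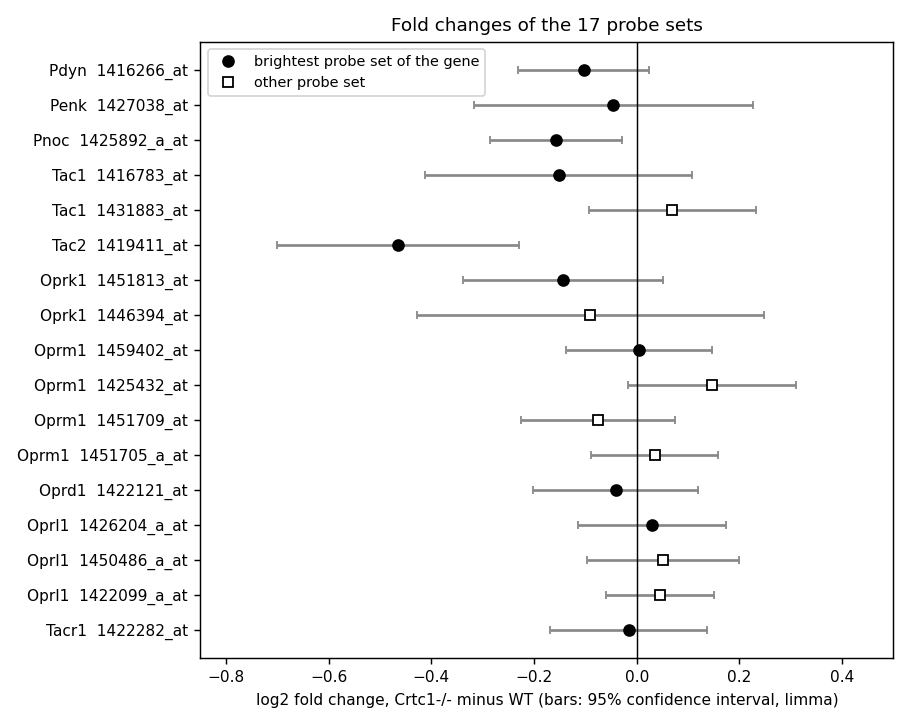
Log2 fold change, Crtc1-/- minus WT (horizontal axis), of the 17 probe sets (rows, with gene and probe set); points are estimates, filled for the brightest probe set of a gene, and bars are 95% confidence intervals from limma. The intervals of Tac2 (−0.70 to −0.23) and Pnoc (−0.29 to −0.03) lie below 0 and those of the other 15 probe sets include 0.

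The wider pathway was followed in 4 lists. Of the related receptors and peptides 11 of 13 genes were measured, and 0 passed in either direction; at an unadjusted p under 0.05, Tacr3 was higher. Their median log2 fold change was 0.02. After Tacr3, the gene with the smallest p was Ackr3, an atypical receptor that takes up opioid peptides, with a log2 fold change of −0.10 (adjusted p = 0.842, limma).

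Prohormone processing and peptide breakdown had 18 of 20 genes measured and 0 that passed, with 2 lower and 1 higher at an unadjusted p under 0.05, beside 7.19% of all probe sets, and a median log2 fold change of 0.03. Mme encodes neprilysin, which degrades enkephalins and substance P, and averaged 5.95 ± 0.17 in Crtc1-/- mice and 5.62 ± 0.22 in WT mice (log2 fold change 0.33, adjusted p = 0.471, limma). The second Mme probe set, 1422975_at, went the other way, at −0.03 (adjusted p = 0.970). Cpd, a carboxypeptidase of the secretory pathway, gave −0.15 on the log2 scale (adjusted p = 0.525). Pam, which amidates substance P and neurokinin B and was picked after its values were seen, had −0.38 (adjusted p = 0.547).

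Among G proteins and effectors, 37 of 39 listed symbols were measured and 0 passed, with 5 lower and 4 higher at an unadjusted p under 0.05, again beside 7.19% of all probe sets, and a median log2 fold change of −0.02. Plcb4, a phospholipase C of the kind that tachykinin receptors drive, read 10.15 to 10.44 in Crtc1-/- mice and 9.95 to 10.06 in WT mice, with no overlap (log2 fold change 0.29, adjusted p = 0.0769, limma). The other 4 Plcb4 probe sets overlapped between the genotypes and gave 0.02 to 0.40. Grk6, a kinase that phosphorylates activated receptors, gave −0.17 on the log2 scale (adjusted p = 0.292).

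Of the transcription factors known to bind Pdyn, Penk and Tac1 regulatory DNA or to assist there, 19 of 21 were measured and 2 passed, both lower. One was Crtc1 itself. The other was Crem, a CREB relative whose short forms repress, which read 6.33 to 6.60 in Crtc1-/- mice and 7.09 to 7.42 in WT mice at 1449037_at (log2 fold change −0.74, adjusted p = 0.00184, limma). Probe set 1418322_at of Crem gave −0.76 (adjusted p = 0.00300). Its dimmer probe sets 1430847_a_at and 1430598_at were not lower, at 0.02 and 0.10 (adjusted p = 0.987 and 0.886). At an unadjusted p under 0.05 there were 4 lower and 3 higher, and the median of this list was 0.03. Fos, an activity-induced factor also picked after its values were seen, gave −0.83 on the log2 scale (adjusted p = 0.199). Counts of calls in these lists, 0 to 2 a list, stand beside 0.187% lower and 0.115% higher among all probe sets, and the unadjusted counts beside 7.19% in either direction. The lists hold genes and the shares hold probe sets, so they are set side by side with no test.

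**Figure D5:**
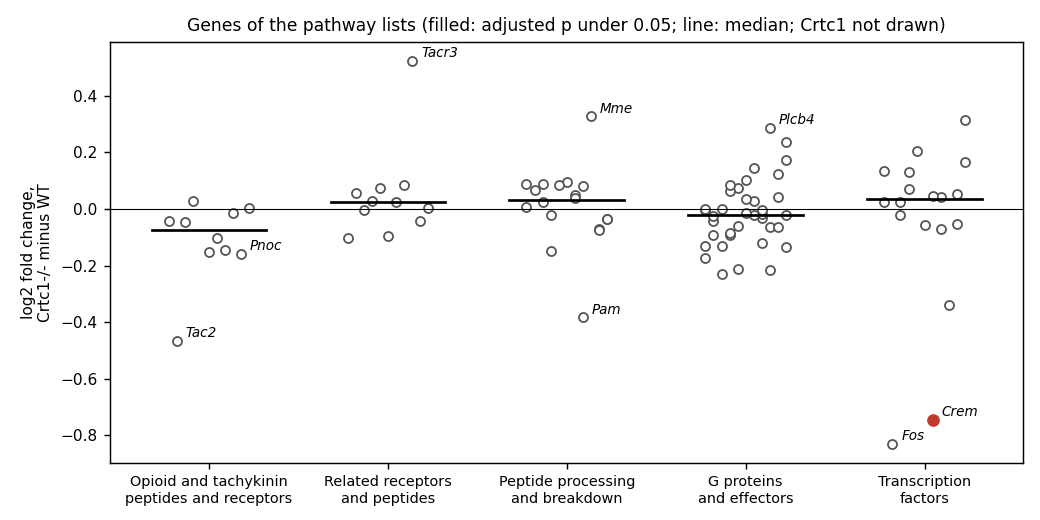
Log2 fold change, Crtc1-/- minus WT (vertical axis), of the brightest probe set of each gene in the opioid and tachykinin group and in 4 pathway lists (horizontal axis); a point is a gene, a filled point passed at an adjusted p under 0.05, and lines are medians. Crem is the filled point, at −0.74. Crtc1, which passed too, at −3.32, was left out of the drawing and of the drawn median of its list.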

How the data were processed

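Cortical RNA of 5 Crtc1-/- and 5 WT mice was hybridized to 1 array each. The authors labelled cRNA with a 3′ IVT Express kit, checked array quality, excluded poor arrays and deposited 1 log2 value per probe set; the background correction, normalization and summarization are not given in the sources used here. These deposited log2 values were used unchanged and ran between 2.14 and 14.26. Of 45101 probe sets, 64 controls were left out. The platform annotation names 1 gene for 34945 probe sets, several for 932 and none for 9160, and 34741 of those with 1 gene matched the RefSeq table of GRCm38.p6 by gene identifier. No detection calls were used, and the number of arrays limits the precision. The labels do not give litters or batches.

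Crtc1-/- minus WT was fitted with lmFit and eBayes of limma 3.58.1 (R 4.3.3) over all probe sets, with Benjamini-Hochberg correction and a threshold of 0.05, after a run on simulated arrays. Single values and marker means had two-sided exact permutation tests, and correlations 100000 resamples (scipy 1.17.1). Figures were drawn with matplotlib 3.10.9. Confidence intervals are at 95%. The brightest probe set stood for a gene. Named were all 10 genes, Crtc1, genes of the 4 pathway lists that passed or else the 2 with the smallest p, and the 3 likest profiles of each gene whose SD over the arrays was in the top 10%. Marker lists covered striatum, hippocampus, interneurons, oligodendrocytes, thalamus and habenula, microglia, astrocytes, endothelium, choroid plexus, meninges and excitatory cortical neurons. The genes and all lists were chosen with earlier results of these data known. Alternatives were quantile normalization, median centring, dropping dim probe sets or those that may cross-hybridize, other variance priors, array weights, a block for the replicate number, marker means as covariates, means over a gene's probe sets, and leaving out each array in turn.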

Additional observations from a re-analysis of the deposited data

How the results depend on the processing

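No alternative made a gene of the group pass except leaving out WT mouse 5, so the count of calls among the 17 probe sets ran between 0 and 1 over the arrays left out. Over all probe sets 136 calls became 239 with a trended and robust variance prior (154 lower, 85 higher), 75 without moderation, 34 with the hippocampal and 33 with the interneuron marker mean as a covariate, and 70 to 105 with 1 array left out. With the replicate block there were 40 calls, and Tac2 had an adjusted p of 0.486. The numbers gave no pairing of the arrays: same-numbered arrays correlated at −0.33 to 0.09 in their deviations from the group means, 0 of 5 pairs over 0.1.

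Tac2, Pnoc, Pdyn, Tac1 and Oprk1 kept a log2 fold change below 0 in every alternative, but single arrays moved some by over 1.5 times: Tac1 was −0.065 and Oprk1 −0.085 without WT mouse 4, and Pdyn was −0.063 without Crtc1-/- mouse 5. The near-zero values changed sign in some. Oprm1 was −0.010 with quantile normalization, −0.00031 with median centring and −0.022 with array weights, and Oprl1 was −0.0010 with the hippocampal mean as a covariate. With 1 array left out, Penk ran between −0.12 and 0.041, Oprl1 between −0.014 and 0.063, Tacr1 between −0.048 and 0.028, Oprm1 between −0.052 and 0.045 and Oprd1 between −0.080 and 0.0098. The differences of marker means ran likewise between −0.080 and 0.023 for striatum, −0.055 and 0.051 for microglia, −0.016 and 0.096 for meninges and −0.016 and 0.038 for excitatory neurons. The dim receptor probe sets limit what can be said of Oprm1, Tacr1 and Oprk1, and the causes of these shifts were not tested.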
